A study of Mus musculus with 12 samples.

Results

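The comparison described here is between PMA-treated cells labelled as lacking HP1γ and PMA-treated cells that express it again, 3 libraries each. These are 6 of the 12 RNA-seq libraries of the series, taken by the cell line and treatment in their labels. Both lines derive from mouse embryonic fibroblasts (MEF). The HP1g -/- line is knocked out for HP1γ, the product of Cbx3, and the HPg line was recomplemented for its expression. All 6 cultures were grown in DMEM with fetal calf serum (FCS) and received the phorbol ester PMA, dissolved in DMSO, at 100 nM for 30 min. The other 6 libraries are the same lines without PMA, which give the same difference between the lines without stimulation and share the fit; no source used here names their vehicle. The design text calls the libraries of a group biological triplicates. One line stands for each genotype, so line and genotype cannot be told apart, and the p-values reflect variation among cultures only. No source used here gives the construct that restores HP1γ.

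HP1γ is one of the heterochromatin protein 1 family, which binds methylated histone H3 through its chromodomain and recruits partners through its chromoshadow domain. It lies both in silent heterochromatin and along the bodies of active genes. PMA is a stable mimic of diacylglycerol that binds the C1 domains of protein kinase C and its relatives. Within minutes this activates the Ras-ERK cascade and NF-kB, and with them immediate-early genes, which are transcribed without new protein synthesis.

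Total counts were 115435857 to 136187037 in the knockout-labelled and 128065854 to 159929347 in the HPg libraries with PMA. Levels are given as CPM, the counts of a gene per 1000000 counts of its library after TMM scaling, and differences as log2 of knockout-labelled over HPg with the standard error (SE) of the edgeR fit. Of the noncoding RNAs, Rpph1, Rn7sk and Rmrp held 19.25%, 12.54% and 17.43% of the counts in knockout-labelled libraries 1 to 3 as a sum, against 9.695%, 11.83% and 16.2% in the HPg libraries of the same number. They were higher in the knockout-labelled library of every pair. In pair 1 the difference between the lines also ran with base composition: the median log2 ratio of protein-coding genes went from -0.33 in the bin of lowest GC content to 0.37 in the bin of highest, of 5 bins of equal size. It went from -0.14 to 0.08 in pair 2 and from -0.01 to 0.04 in pair 3. Counts without replicate 1 are therefore given beside the gene groups they change most.

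**Figure D1:**
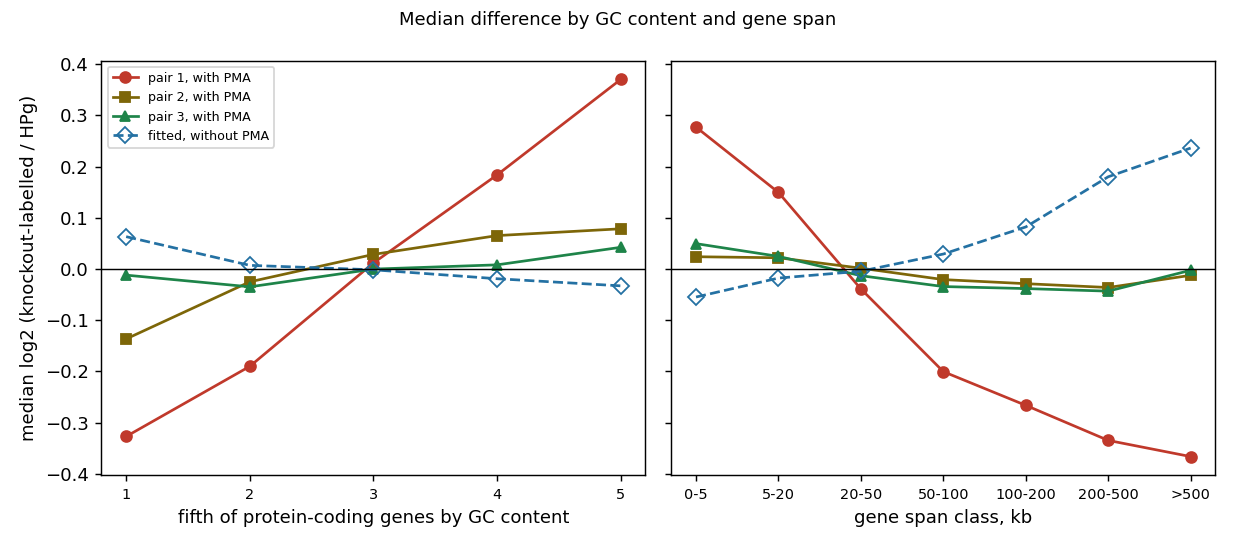
Median log2 ratio of knockout-labelled over HPg for protein-coding genes, by bin of GC content (left) and by gene span in kb (right), for each of the 3 PMA pairs and for the fitted difference without PMA. Pair 1 rises with GC content from -0.33 to 0.37 and falls with gene span from 0.28 to -0.37, while pairs 2 and 3 stay between -0.14 and 0.08.

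Cbx3 (ENSMUSG00000029836, chromosome 6), the targeted gene, was measured at 33.3, 26.9 and 35.2 CPM in the knockout-labelled and 43.1, 33.8 and 38.9 CPM in the HPg libraries with PMA. These rest on 3564 to 3829 and 4771 to 6665 counts. The knockout-labelled library was lower in each pair of the same number, but the groups overlapped. The log2 difference was -0.28 (SE 0.11), with adjusted p = 0.0876 in the edgeR quasi-likelihood test, and did not pass. Its transcript was thus counted at a similar level in both lines, and per-gene totals cannot tell an altered Cbx3 transcript from an intact one. The labels are therefore unchecked by it, and the group is called knockout-labelled throughout.

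The MEF origin was checked against fibroblast markers, of which 13 of 14 passed the filter on low counts. Their summed level was 10150 to 13000 CPM in knockout-labelled and 8767 to 12530 CPM in HPg libraries with PMA, with Vim at 3031 to 4154 CPM and Col1a1 at 2887 to 6093 CPM over the 6 libraries. Vim and Col1a1 were the most abundant members of the list. The defining marker Thy1 was at 0 to 0.0377 CPM, with no count in 2 HPg libraries. Others were low too: Lum was at 0.03264 to 0.2863, Fap at 0.1309 to 0.5046, Dcn at 2.207 to 15.88 and Col1a2 at 6.325 to 16.38 CPM. Pdgfrb was at 279.6 to 362.7 CPM. Markers of other cells were lower in sum. The 12 neural markers made up 221.1 to 288.1 CPM in knockout-labelled and 233.5 to 301.9 CPM in HPg libraries, with Tubb3 at 0. The 10 cartilage and bone markers made up 98.66 to 135.8 and 65.65 to 90.03 CPM, with Ibsp at 0. The 8 muscle markers made up 28.54 to 71.59 and 21.57 to 70.29 CPM, with Myod1 and Myog at 0, and the 8 adipocyte markers 23.74 to 35.8 and 33.48 to 63.66 CPM, with Cidec at 0. The 10 epithelial markers together made up 15.81 to 17.27 CPM in knockout-labelled and 9.179 to 9.593 CPM in HPg libraries, with Epcam and Cldn4 at or near 0. The 8 endothelial markers made up 15.1 to 19.54 and 8.7 to 11.25 CPM, with Cdh5 and Tie1 at or near 0. The 10 blood and immune markers made up 5.606 to 7.119 and 3.661 to 5.697 CPM, and Cd3e and Hbb-bs had no count. In bulk samples a smaller number of cells of a type and less RNA per cell cannot be told apart, and the part of the other cells in the results was not tested.

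Of 16630 genes that passed the filter, among 37310 in the table, 3090 (18.6%) were called, that is, had an adjusted p below 0.05 with the replicate number as a block. Of these 1578 (9.49%) were higher and 1512 (9.09%) lower in knockout-labelled cells. Most differences were small: 585 of the called genes differed by more than 1 on the log2 scale (448 higher and 137 lower), 1360 by less than 0.5, and the median size was 0.54. In 3079 of the 3090 all 3 pairs pointed the same way, against 8952 of all 16630 genes tested. Calling genes by a fit on these same pairs favours such agreement, so it is no separate support. Between the groups as a whole 4145 genes (24.9%) did not overlap, and 2197 of them were among the called. The pairing carries much of this count. Without the block 411 genes (2.47%) were called, 215 higher and 196 lower. Leaving out replicate 1 gave 1772 (10.6%), replicate 2 gave 3571 (21.5%) and replicate 3 gave 211 (1.26%). Each of the latter fits has 2 libraries per group. With libraries scaled by their total only, 1097 were higher and 1817 lower, and with upper-quartile factors 2012 and 1064, so the balance between higher and lower calls depends on the scaling.

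Among called genes that averaged 1 CPM or more in 1 of the groups and did not overlap, the 10 most increased were led by matrix and junction genes. Hapln1, a link protein that ties hyaluronan to proteoglycans, was at 1.78, 1.86 and 1.21 CPM in knockout-labelled and 0.155, 0.374 and 0.131 CPM in HPg libraries with PMA (log2 difference 2.98, SE 0.29, edgeR adjusted p = 3.12e-05). Dsp, the desmoplakin that anchors keratin filaments to desmosomes, was at 3.34, 5.76 and 5.07 against 0.382, 1.21 and 0.563 CPM (2.86, SE 0.26). Rspo1, an R-spondin that strengthens Wnt signalling, was at 2.75, 2.99 and 2.11 against 0.498, 0.546 and 0.384 CPM (2.46, SE 0.24). The groups did not overlap for any of the 3, and they remained called in each of the 20 alternative fits, as did the liprin gene Ppfibp2 (2.43).

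The other 6 of these genes were Olfml1 (2.40), Cytl1 (2.32), Smarca1 (2.29), H19 (2.13), Kcnip4 (2.06) and Qpct (2.06). Smarca1, the ISWI remodeller SNF2L, was at 2.09, 1.55 and 2.37 CPM against 0.265, 0.736 and 0.351 CPM. Kcnip4, a potassium channel-interacting protein, was at 7.27, 31.5 and 15.6 CPM against 2.57, 6.41 and 2.90 CPM. Its libraries rank alike in both lines, with library 2 highest, and without the block it was not called. H19, an imprinted noncoding RNA, and Olfml1 were not called without the block or without replicate 3. Cytl1 was not called without replicate 1 or without replicate 3, and Smarca1 and Qpct not without replicate 3.

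The 10 most decreased by the same rule had larger differences, and several encode proteins of neuronal adhesion and synapses. Cttnbp2, a cortactin-binding protein of dendritic spines, was at 0.0960, 0.121 and 0.267 CPM in knockout-labelled and 4.22, 3.54 and 3.59 CPM in HPg libraries with PMA (log2 difference -4.58, SE 0.34, edgeR adjusted p = 5.44e-06). Lrrc4c, the netrin-G1 ligand, was at 1.73, 1.51 and 1.49 against 49.1, 26.8 and 34.7 CPM (-4.53, SE 0.25, adjusted p = 7.75e-07). Elmod1, a GTPase-activating protein of the ELMO domain family, was at 0.262, 0.0452 and 0.294 against 4.55, 0.818 and 2.24 CPM (-3.59, SE 0.47). Every knockout-labelled library lay below every HPg library for each of them.

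Cftr, a chloride channel, was at 5.90, 4.41 and 4.90 CPM against 63.7, 34.7 and 40.6 CPM and had the smallest p of all named genes (-3.16, SE 0.14, edgeR adjusted p = 4.07e-08). Cadm2, a synaptic adhesion molecule, was at 5.88, 5.47 and 7.18 against 98.1, 42.4 and 49.2 CPM (-3.33). Magi2, a synaptic scaffold, was at 7.42, 22.7 and 22.1 against 100.2, 136.3 and 110.9 CPM (-2.94). Every HPg library of these 3 genes lay above every knockout-labelled one. The serotonin receptor Htr2c (-2.96), the dynein chain Dnaic1 (-2.53), the adaptor Sorbs2 (-2.19) and the cadherin Fat2 (-2.17) completed the group. All 10 but Dnaic1 (not without replicate 3) and Sorbs2 (not without the block) remained called in each alternative fit.

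**Figure D2:**
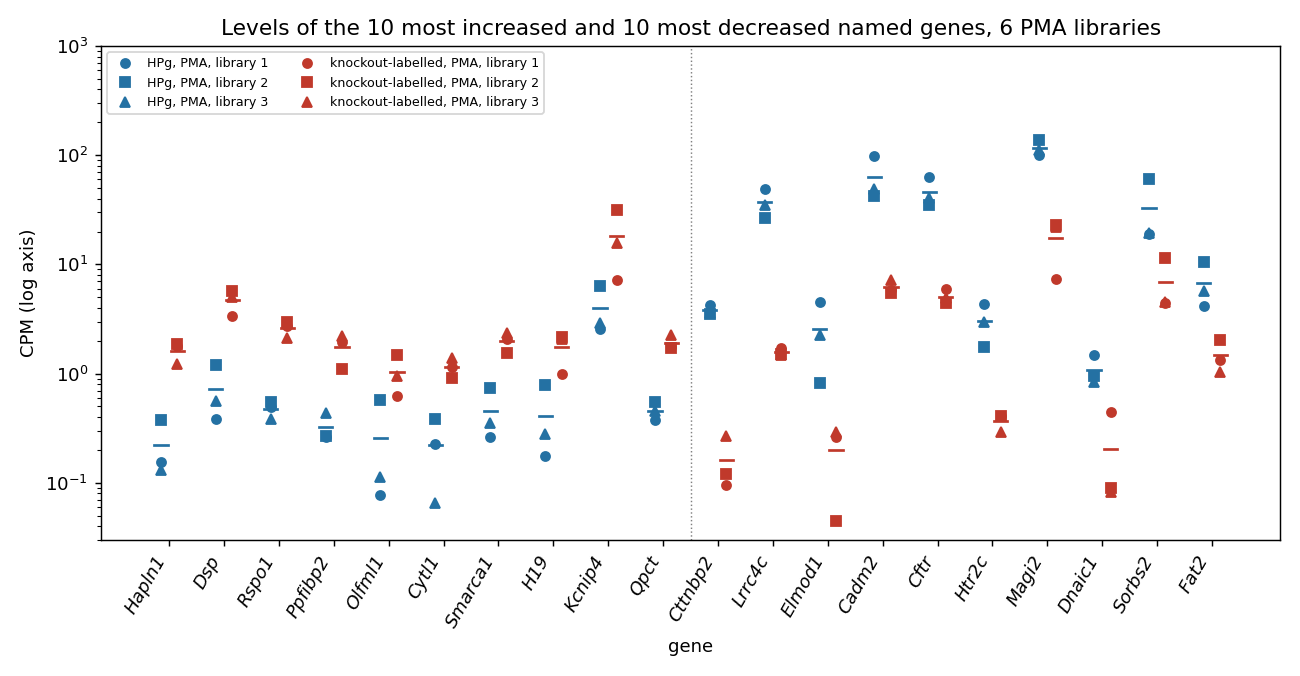
CPM on a log axis for the 10 most increased (left of the dotted line) and 10 most decreased (right) called genes with at least 1 CPM in the higher group, in each of the 3 HPg and 3 knockout-labelled PMA libraries; symbols mark the library number and short lines the group means. For each gene the 2 groups do not overlap, which the naming rule required.

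The genes with the smallest p were not all among the largest differences. Chd3, a helicase subunit of the NuRD complex, was at 69.8, 73.7 and 74.4 CPM in knockout-labelled and 18.1, 21.9 and 19.5 CPM in HPg libraries (log2 difference 1.88, SE 0.09, edgeR adjusted p = 6.73e-08). The replicates of each line lay close together. Parm1 (-2.06), the metalloproteinase Pappa (-1.92) and the secreted olfactomedin Olfm1 (-1.48) were lower, and the serine protease Htra1 (1.27), Megf6 (1.81) and Fry (2.03) higher. Pappa, which cleaves binding proteins of insulin-like growth factor, was at 47.2, 74.4 and 47.6 against 194.1, 229.6 and 197.0 CPM. Of the 10 genes with the smallest p, 9 remained called in each alternative fit, and Fry was not called without the block.

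The tested neighbours of the 3 most decreased genes were not all affected, by the order of genes in the GRCm38 annotation. Beside Cttnbp2, Cftr was lower, and so were the predicted gene Gm15592, which was near 0 in both lines (mean 0.00754 against 0.0818 CPM) and, less so, Lsm8 (-0.52, adjusted p = 0.0160 with edgeR), which encodes a U6-binding protein. Tspan12 beyond it was not called. Beside Lrrc4c, Api5 was lower (-0.36), and beside Elmod1, Dmxl2 (-0.93) and Sh2d7 (-1.85) were lower and Slc35f2 was higher (0.61). Sh2d7 was near 0 in both lines (mean 0.0428 against 0.1555 CPM).

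Transcripts of protein kinases C and D and of other C1-domain or diacylglycerol proteins differed in both directions. Whether each of these proteins binds PMA was not tested. Of 10 protein kinase C and D isoforms tested, 2 were higher and 1 lower (30%, against 18.6% of all genes). Prkcd, a calcium-independent isoform, was at 77.3, 80.2 and 79.8 CPM in knockout-labelled and 58.5, 69.7 and 62.2 CPM in HPg libraries (log2 difference 0.32, SE 0.09, edgeR adjusted p = 0.0197), and Prkd2 differed by 0.49. Prkce was at 42.1, 99.7 and 63.8 against 90.1, 114.0 and 91.2 CPM, lower in each pair (-0.63, SE 0.17) with overlapping groups. None of the 3 was called without replicate 1. Prkca, a classical isoform, was at 131.5, 289.6 and 201.5 against 185.6, 262.5 and 197.6 CPM and did not pass. Among 13 other proteins with C1 domains or diacylglycerol kinases, Chn1 (1.07), Rasgrp2 (1.22) and Unc13a (0.77) were higher and Unc13c (-0.90), Dgke (-0.64) and Dgka (-0.44) lower (46.2%). Without replicate 1, 3 were higher and 2 lower, and without the block none was called in either list. Rasgrp2 is an exchange factor for Rap and was low, at 1.33 to 2.17 against 0.514 to 0.938 CPM.

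In the Ras-ERK cascade 2 of 28 genes were higher and 3 lower (17.9%, against 18.6% of all genes). The list median was -0.04, against 0.01 over all genes tested. Braf, the kinase that phosphorylates MEK, was at 66.8, 86.0 and 74.5 CPM in knockout-labelled and 128.8, 115.5 and 95.4 CPM in HPg libraries (-0.59, SE 0.13, edgeR adjusted p = 0.00651). The ternary complex factor Elk3 was lower (-0.50). Rras (0.42) and the kinase Rps6ka4 (0.34) were higher. Mapk3, which encodes an ERK kinase, did not pass (0.20, adjusted p = 0.219). The medians of the protein kinase C, C1-domain and Ras-ERK lists all lay within 0.06 of 0, and their signs changed with the scaling of the libraries.

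Among immediate-early genes the calls were mostly in the higher direction. Of 44 transcription factors of this class 24 were called higher and 2 lower (59.1%, against 18.6% of all genes), 36 lay above 0, and the median was 0.42. Of 52 feedback and signalling genes 22 were higher and 4 lower (50%), with a median of 0.38. The medians differed between the pairs, at 0.68, 0.20 and 0.41 for the factors and 0.53, 0.19 and 0.34 for the feedback genes in pairs 1 to 3. Without replicate 1 the factors counted 12 higher and 2 lower (median 0.28) and the feedback genes 16 and 0 (median 0.30). With offsets for GC content and length the counts were 18 and 2 (median 0.34) and 20 and 3 (median 0.28). Without the block they were 3 and 0 for each list.

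Fosl1, a Fos-related AP-1 subunit, was at 75.8, 77.3 and 70.3 CPM in knockout-labelled and 48.2, 47.1 and 48.7 CPM in HPg libraries with PMA (log2 difference 0.63, SE 0.09, edgeR adjusted p = 4.33e-04). The replicates of each line lay within a few CPM of each other. Fos was at 418.1, 250.1 and 238.2 against 131.4, 188.4 and 110.5 CPM (1.03, SE 0.23), and Jun at 217.7, 265.4 and 229.3 against 148.6, 189.6 and 151.7 CPM (0.54, SE 0.10). For both the groups did not overlap. Myc was at 50.9, 49.8 and 38.2 against 33.0, 31.6 and 25.7 CPM (0.62, SE 0.10). Egr3, a zinc finger factor induced by ERK, was at 42.4, 38.0 and 34.6 against 13.1, 22.1 and 15 CPM (1.22, SE 0.17). Hes1, a Notch target and repressor, was at 102.2, 137.0 and 94.6 against 35.5, 81.5 and 38.6 CPM (1.19, SE 0.14).

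Nr4a1, an orphan nuclear receptor and one of the most abundant called genes, was at 914.3, 890.0 and 626.1 CPM against 399.7, 827.3 and 367.9 CPM (0.67, SE 0.17). The pair 2 values lay closest and the groups overlapped, and it was not called without replicate 1. Bhlhe40 (1.00), Fosb (0.91), Cebpd (0.70), Tsc22d1 (0.67), Atf3 (0.67), Klf10 (0.66), Klf2 (0.65), Klf4 (0.59), Ier5 (0.52), Csrnp1 (0.51), Fosl2 (0.48), Arid5a (0.43), Maff (0.42), Cebpb (0.39), Ets2 (0.37), Mafk (0.36) and Klf9 (0.32) were higher too. Arid5b (-0.50) and Klf5 (-0.63) were the 2 lower ones.

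Among the feedback genes, secreted and matricellular products were higher: Ccn2, connective tissue growth factor, was at 246.1, 351.8 and 198.8 CPM against 118.0, 201.0 and 97.8 CPM (0.97, SE 0.10, edgeR adjusted p = 7.05e-05). Its relative Ccn1 (0.62), the EGF receptor ligand Hbegf (0.86), Vegfa (0.46) and Lif (0.76) were higher as well. Of the proteins that destabilize AU-rich mRNA, Zfp36 was at 195.5, 163.7 and 128.3 against 82.2, 121.8 and 61.0 CPM (0.91, SE 0.15), and Zfp36l1 (0.85) and Zfp36l2 (0.36) were higher. MAP kinase phosphatases split: Dusp1 (0.78) and Dusp5 (0.62) were higher and Dusp16 (-0.43) lower. Of the Ras pathway inhibitors, Spry1 (0.71) and Spry2 (0.56) were higher and Spred2 (-0.40) lower. Ptgs2, cyclooxygenase 2, was at 83.3, 37.3 and 64.3 against 134.9, 48.6 and 98.7 CPM, lower in each pair (-0.56, SE 0.13), and Rcan1 (-0.38) was lower. Gadd45g (1.00), Trib1 (0.79), Cdkn1a (0.70), Btg2 (0.66), Errfi1 (0.63), Pim1 (0.52), Plaur (0.50), Plk2 (0.47), Mcl1 (0.40) and Ier3 (0.36) were higher.

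The difference of these genes between the lines was mostly smaller without PMA. The list medians were 0.09 and 0.01 there, with 3 higher factors and 1 lower and 2 higher and 8 lower feedback genes called, against a background of 2083 called genes (12.5%). No gene passed the test of the interaction of line and PMA (0.0%, edgeR quasi-likelihood test with the block, smallest adjusted p = 0.0541, for Fosl1). At an unadjusted p below 0.05 there were 1275 genes (7.67%). Of these, 349 had an interaction above 0, that is, a higher log2 difference with PMA than without, whatever its sign. Those included 14 of 16 such immediate-early factors and 25 of 26 such feedback genes, and the median interaction was 0.29 and 0.36 for the lists against 0.01 for all genes. Without replicate 1 the list values were 10 of 11 and 21 of 21, with medians of 0.19 and 0.31. With GC and length offsets the medians were 0.16 and 0.27, and without the block 6 factors and 8 feedback genes reached that p. Other lists leaned the same way: replication-dependent histones had a median interaction of 0.31, with 52 of 55 above 0, and ribosomal proteins 69 of 81 above 0. Fosl1 went from -0.33 without PMA to 0.63 with it, and passed with DESeq2 (adjusted p = 2.33e-06), with a filter of 1 CPM (0.0485), with no filter (0.00299), with upper-quartile factors (0.0390) and without HPg library 2 of the untreated cells (0.0413), which detected the fewest genes of the series (17822). Myc, Trib1, Jun and Klf10 lay at 0.00, -0.06, -0.01 and -0.04 without PMA.

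**Figure D3:**
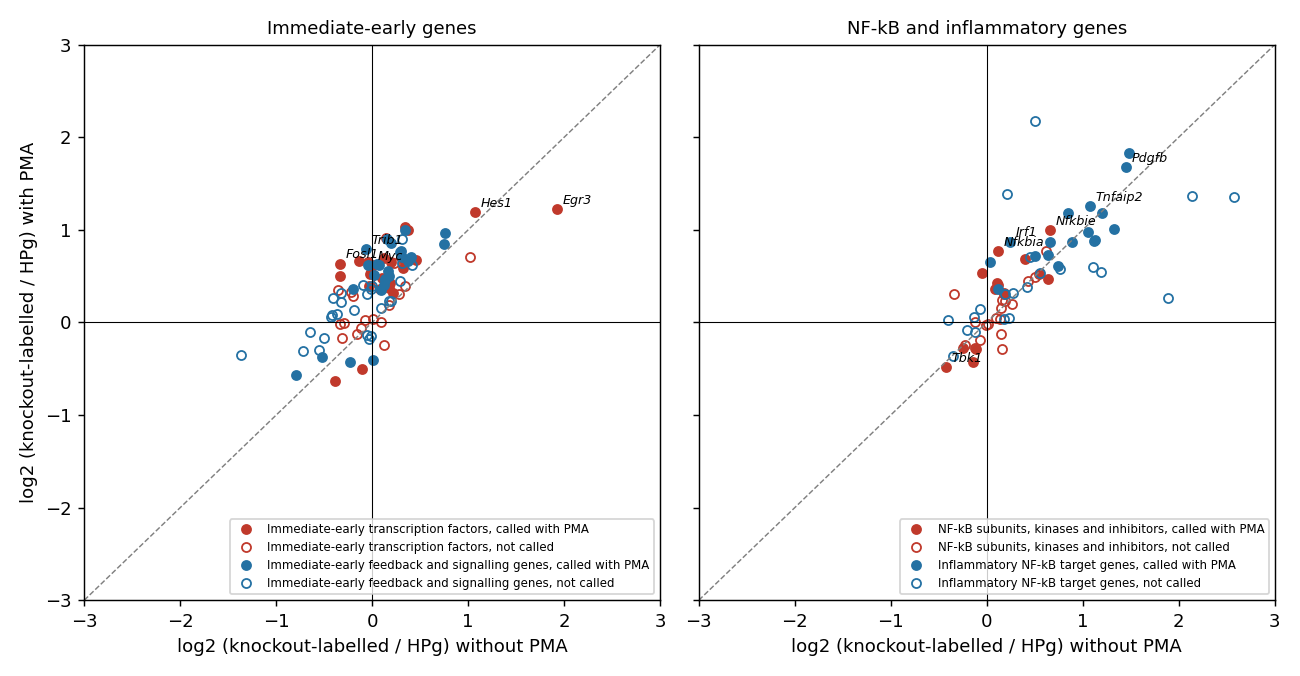
Fitted log2 difference of knockout-labelled over HPg with PMA (vertical) against the same without PMA (horizontal), for immediate-early genes (left) and NF-kB and inflammatory genes (right); filled points are called with PMA, the dashed line marks equal differences. Most filled immediate-early points lie above the line and near 0 on the horizontal axis, while inflammatory genes such as Pdgfb and Tnfaip2 lie along the line.

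NF-kB is held in the cytoplasm by IkB proteins until kinases mark these for destruction, and many of its inhibitors are its own targets. Of 33 genes of the pathway 9 were higher and 4 lower (39.4%). The inhibitor Nfkbie was at 13.9, 11.4 and 14.3 CPM in knockout-labelled and 5.67, 7.10 and 7.01 CPM in HPg libraries (0.99, SE 0.15, edgeR adjusted p = 7.31e-04). Nfkbia, IkB alpha, was at 169.0, 136.6 and 205.9 against 71.7, 92.8 and 136.9 CPM (0.77, SE 0.16), higher in each pair. The subunits Nfkb2 (0.68), Relb (0.52) and Rela (0.42), the inhibitor Nfkbiz (0.53), Card10 (0.36), Tnip1 (0.32) and the kinase Ikbke (0.47) were higher. The 4 lower genes were kinases and adaptors: Tbk1 (-0.48), Tab2 (-0.43), Map3k7, which encodes TAK1 (-0.29), and Ikbkb, which encodes IKK2 (-0.27). The kinase Ikbke went the other way. With chromosome medians removed the list counted 6 higher and 0 lower, so none of the 4 was then called. Map3k7 and Ikbkb were each called in 8 of the 20 alternative fits. Without replicate 1 the list counted 5 higher and 3 lower, and without the block 2 and 1.

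Of 38 inflammatory targets of NF-kB 16 were higher and none lower (42.1%), with a median of 0.68. Pdgfb, a platelet-derived growth factor chain, was at 7.65, 11.2 and 11.8 CPM in knockout-labelled and 2.11, 3.73 and 3.81 CPM in HPg libraries (1.68, SE 0.18, edgeR adjusted p = 7.05e-05). Tnfaip2 was at 37.3, 37.6 and 44.98 against 12.6, 16.1 and 21.7 CPM (1.26, SE 0.16). The TNF receptor Tnfrsf1b (0.73) and the apoptosis inhibitor Birc3 (0.61) were higher. Chemokines were higher as well: Ccl2 was at 17.5, 19.7 and 36.1 against 7.53, 13.5 and 15.1 CPM (0.98), and Ccl7 (1.01), Ccl20 (0.86), Cxcl5 (0.89), Cxcl16 (1.18) and Cx3cl1 (0.72) followed. Irf1, an interferon regulatory factor, was at 177.3, 203.3 and 303.8 against 75.3, 133.3 and 167.9 CPM (0.87, SE 0.19). C3 (0.86), Mmp9 (1.83), Gch1 (0.65), Tapbp (0.36) and Icam1 (1.19) were the rest. Without replicate 1, 9 were higher, and without the block 3. Unlike the immediate-early lists this one had a median of 0.59 without PMA, with 9 members higher and 1 lower, and 3 of its members reached an unadjusted p below 0.05 in the interaction.

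Promoters of the strongest called member of 3 of these lists that has an entry in the RefSeq promoter table (GRCm38.p6) are shown as a description. Whether AP-1 or NF-kB had a part in the difference between the lines was not tested. Each run holds the 250 bases upstream of the gene's start, 5′ to 3′ on the gene's strand, with matches on either strand in capitals. The motifs searched were AP-1 (TGANTCA), CRE (TGACGTCA), EGR (GCGNGGGCG), the TATA box (TATAAA), the CArG box and the kB site.
Zfp36l1, chr12:80113014-80113263, minus strand: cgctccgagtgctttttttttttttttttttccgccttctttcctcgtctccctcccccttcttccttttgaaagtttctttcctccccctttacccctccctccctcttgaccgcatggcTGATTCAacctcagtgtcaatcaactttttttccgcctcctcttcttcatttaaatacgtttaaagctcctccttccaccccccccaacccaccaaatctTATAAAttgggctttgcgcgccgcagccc
Nfkbie, chr17:45555450-45555699, plus strand: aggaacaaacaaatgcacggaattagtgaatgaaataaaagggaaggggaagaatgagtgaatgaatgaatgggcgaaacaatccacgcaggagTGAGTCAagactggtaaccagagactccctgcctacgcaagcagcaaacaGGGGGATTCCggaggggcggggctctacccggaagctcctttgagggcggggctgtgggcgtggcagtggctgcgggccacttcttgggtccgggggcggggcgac
Tnfaip2, chr12:111442411-111442660, plus strand: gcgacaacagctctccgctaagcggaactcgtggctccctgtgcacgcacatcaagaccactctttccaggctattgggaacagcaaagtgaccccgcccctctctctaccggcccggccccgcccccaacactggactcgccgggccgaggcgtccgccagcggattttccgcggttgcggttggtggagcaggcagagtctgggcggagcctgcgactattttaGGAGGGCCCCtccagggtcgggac
The capitals are an AP-1 match and a TATA box in Zfp36l1, an AP-1 match and a kB site in Nfkbie, and a kB site in Tnfaip2. Of 32851 promoter windows of this length 6.75% held the AP-1 letters, 7.25% a kB site and 12.4% the TATA box. The strongest immediate-early factor with an entry, Tsc22d1, has 5 starts there. The window of its most upstream start held none of the 6 motifs, and those of its other starts are not reported. A match is a description of letters, not a bound site.

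Of 53 interferon-stimulated and antigen presentation genes 9 were higher and 3 lower (22.6%). The peptide transporter genes Tap1 (0.94) and Tap2 (0.81), the STAT partner Irf9 (0.78), Parp14 (0.88) and Parp9 (0.67) were higher. Ifih1, the sensor of double-stranded RNA also called MDA5, was at 35.4, 28.5 and 26.3 CPM in knockout-labelled and 74.6, 56.2 and 58.8 CPM in HPg libraries (-1.07, SE 0.11, edgeR adjusted p = 4.97e-05). Without PMA 15 of the list were higher and 2 lower. In the necroptosis and pyroptosis list the kinase Ripk3 was at 4.79, 2.62 and 4.23 against 1.36, 0.571 and 0.947 CPM (2.05, SE 0.18), while its substrate Mlkl, which perforates the membrane, was at 5.21, 3.84 and 5.67 against 13.8, 7.37 and 14.0 CPM (-1.21, SE 0.13). Gsdmd (1.25), Il18 (1.28) and Casp12 (0.82) were higher and Gsdme (-0.54) and Casp8 (-0.34) lower. For Ripk3 and Mlkl the groups did not overlap.

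Genes of the HP1 and histone H3 methylation machinery were called about as often as all genes tested (17.1%, against 18.6%). They counted 1 higher and 5 lower, with all log2 differences between -0.42 and 0.39. Of 35 tested, Trim28, the KAP1 corepressor that binds HP1, was at 280.9, 209.1 and 215.1 CPM in knockout-labelled and 181.2, 171.5 and 178.8 CPM in HPg libraries (0.39, SE 0.10, edgeR adjusted p = 0.0155). The demethylases Kdm3a (-0.41) and Kdm4c (-0.33), the methyltransferase Ehmt1 (-0.35), the silencing cofactor Atf7ip (-0.30) and Smchd1 (-0.35) were lower. The paralogs Cbx1, HP1β, at 61.6, 65.1 and 70.4 against 82.9, 64.7 and 71.2 CPM, and Cbx5, HP1α, at 396.7, 499.5 and 533.2 against 481.4, 460.8 and 476.4 CPM, did not pass (adjusted p = 0.377 and 0.982). Their log2 differences were -0.15 (SE 0.11) for Cbx1 and 0.01 (SE 0.12) for Cbx5, so small differences could not be seen. Without replicate 1 none of the list was higher and 1 lower, and without the block none was called. Among 50 remodellers and histone deacetylases 6 were higher and 7 lower (26.0%). Chd3, Smarca1 and Hdac11 (2.23) were far ahead among the higher, and Baz2b (-0.58) and Chd9 (-0.50) were among the lower. Hdac11 was at 0.960, 0.829 and 0.892 against 0.0970, 0.292 and 0.196 CPM. Of 29 Polycomb genes 3 were higher and 4 lower (24.1%). The accessory factor Phf19 (0.89), Cbx7 (0.63) and Cbx8 (0.45) were higher, and Scmh1 (-0.54), Bmi1 (-0.42) and Eed (-0.38) were among the lower.

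Among extracellular matrix genes the calls were mostly in the higher direction. Of 63 glycoproteins and proteoglycans 25 were higher and none lower (39.7%, median 0.41), against 17 and 2 without PMA. Emilin2, an elastin interface protein, was at 12.5, 12.5 and 13.3 CPM in knockout-labelled and 4.19, 4.79 and 4.59 CPM in HPg libraries (1.5, SE 0.12, edgeR adjusted p = 5.78e-06). The elastic fibre gene Fbln5 was at 313.2, 528.7 and 327.2 against 128.2, 268.6 and 129.6 CPM (1.20, SE 0.10), and Fbln2 (1.76), Smoc1 (1.01) and Smoc2 (1.01) were higher. Thbs1, thrombospondin, was the most abundant called gene beyond 0.5, at 3404, 3219 and 1952 against 1671, 2126 and 984.0 CPM (0.88, SE 0.13). The crosslinking enzyme Lox was at 946.4, 1242 and 759.5 against 433.6, 834.7 and 353.2 CPM (0.94). Library 3 was lowest for Thbs1 and Lox in both lines, and every pair had more in the knockout-labelled library.

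Collagens were mixed, with 5 of 34 higher and 3 lower (23.5%, against 18.6% of all genes). Col11a1 was at 47.4, 41.4 and 47.9 CPM against 18.4, 25.3 and 17.3 CPM (1.20, SE 0.18), and Col3a1 (0.61), Col8a1 (0.46) and Col1a1 (0.41) were higher. Without replicate 1 the only collagen called higher was Col8a1. Col3a1 was at 1102, 2633 and 1413 against 616.5, 2485 and 752.8 CPM, highest in library 2 of both lines. The basement membrane chains Col4a1 (-0.51), Col4a2 (-0.40) and Col4a6 (-1.79) were lower. Matrix proteases and their inhibitors had 13 of 36 higher and 1 lower (38.9%). The plasminogen activator Plau (0.74) was higher, as were the protease inhibitors Serpine2 (0.65) and Timp2 (0.59) and the aggrecanase Adamts5 (0.66), and the membrane-type protease Mmp16 was lower (-0.95). Without replicate 1 the glycoproteins counted 18 higher and 2 lower and the proteases 12 and 3. Without the block 3 of the glycoproteins and none of the proteases were higher.

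Junction genes went both ways, with 6 of 25 higher and 5 lower (44.0%, against 18.6% of all genes). The desmosomal Dsp, Ppl (1.5), Perp (1.00) and Jup (0.84) and the nectin Nectin2 (1.60) were higher, and N-cadherin Cdh2 was at 125.3, 152.4 and 140.4 CPM in knockout-labelled and 281.0, 229.3 and 238.6 CPM in HPg libraries (-0.86, SE 0.14, edgeR adjusted p = 0.00103). Ppl, periplakin, was at 6.21, 8.29 and 8.22 against 2.61, 2.64 and 2.78 CPM. Dsp, Krt8 (2.39) and Krt19 (0.85) were the 3 called of 6 tested epithelial markers, while Cdh1 was at 4.33 to 7.52 CPM over all 6 libraries and Epcam at 0 to 0.0827 CPM. Krt8 was near 0, at 0.6543, 0.1432 and 0.3401 against 0.2135, 0.01269 and 0.07345 CPM, and its groups overlapped. It was called in 7 of the 20 alternative fits. Of 46 neuronal adhesion and synaptic genes 6 were higher and 9 lower (32.6%). Shank2, a postsynaptic scaffold, was lower (-1.94) beside Lrrc4c, Cttnbp2, Cadm2 and Magi2, and Ncam1 was higher (1.10).

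Signalling lists of development held strong single differences in both directions. In the Wnt list, 11 of 46 were higher and 4 lower (32.6%, against 18.6% of all genes). Rspo1 and Wnt5a (0.78) were higher, and the antagonist Dkk2 was at 7.43, 9.88 and 6.83 CPM in knockout-labelled and 27.0, 25.9 and 19.4 CPM in HPg libraries (-1.60, SE 0.14, edgeR adjusted p = 1.67e-05). The receptor Fzd9 (-1.49) and the formin-like Daam2 (-1.15) were lower and Fzd1 was higher (0.58). Among 50 BMP and TGF-beta genes, 10 were higher and 6 lower (32.0%). Bmp2 was at 3.32, 2.41 and 2.43 against 8.03, 10.97 and 7.03 CPM (-1.66, SE 0.20), and Gdf6, another BMP ligand, at 39.6, 75.8 and 35.5 against 17.0, 37.9 and 12.6 CPM (1.24, SE 0.11). Tgfb1 (0.98), Tgfb3 (0.64), the activin antagonist Fst (0.84) and the procollagen protease Bmp1 (0.48) were higher. The growth factor Fgf10 was at 44.1, 46.7 and 53.3 against 90.9, 77.0 and 87.7 CPM (-0.84, SE 0.11), with -0.20 without PMA.

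Among cell cycle genes nearly all calls were lower, by small amounts. Of 45 G1/S and replication genes 16 were lower and 1 higher (37.8%, against 18.6% of all genes), and 4 lay above 0, with a median of -0.24. Of 42 G2/M genes 13 were lower and none higher (31.0%), and 1 lay above 0, with a median of -0.28. Cdk1, the mitotic kinase, was at 178.3, 158.5 and 204.1 CPM in knockout-labelled and 274.3, 208.8 and 349.3 CPM in HPg libraries (-0.60, SE 0.12, edgeR adjusted p = 0.00403). Kif18a (-0.87), Spc25 (-0.66), Bub1 (-0.66), Mad2l1 (-0.51) and Ttk (-0.51) of the spindle and its checkpoint were lower, and so were E2f7 (-0.73), Clspn (-0.79), Pola1 (-0.52), Orc1 (-0.47), Ccne2 (-0.45) and Prim1 (-0.42). The medians in pairs 1 to 3 were -0.42, -0.04 and -0.27 for G1/S and -0.50, -0.10 and -0.24 for G2/M. Without replicate 1 there were 6 and 7 lower, and without the block 1 and 1. With chromosome medians removed 6 of the G1/S and 13 of the G2/M genes were lower and none higher. In that fit 12.5% of all genes were called. The inhibitor Cdkn1a, p21, was at 33.3, 41.3 and 29.7 against 18.5, 25.3 and 20.03 CPM (0.70, SE 0.12), whereas the p53 regulator Mdm2 (-0.44) and Sesn1 (-0.43) were lower.

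Several further groups were described in the same way. Sterol and fatty acid synthesis genes had 5 of 29 higher and none lower (17.2%, against 18.6% of all genes). Insig1 was at 541.3, 473.0 and 526.2 CPM in knockout-labelled and 390.1, 406.6 and 387.0 CPM in HPg libraries (0.37, SE 0.12, edgeR adjusted p = 0.0415). Fdft1 (0.45) and Sqle (0.31) were higher too. Insig1, Fdft1 and Sqle were called in 10, 11 and 8 of the 20 alternative fits. Without replicate 1 the list had 3 higher, and without the block none was called. SR proteins and hnRNPs had 5 of 50 lower (10.0%), among them Hnrnpa3 (-0.52) and Hnrnph3 (-0.48), but without replicate 1 only 1 was lower and 1 higher, and Hnrnpa3 was not called. Clustered protocadherins had 8 of 22 higher and none lower (36.4%), with Pcdhb20 at 12.0, 12.0 and 14.0 against 6.73, 9.42 and 6.22 CPM (0.78). These are tandem copies whose reads the counting could split, and 2 were higher without replicate 1. Of 55 replication-dependent histones 2 were higher (3.64%), Hist1h2ba (1.65) and Hist1h2aa (1.71), and of 81 ribosomal protein genes 2 (2.47%), Rpl15 (0.43) and Rpl39l (0.54). No mitochondrially encoded gene of 22 was called in the edgeR test.

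**Figure D4:**
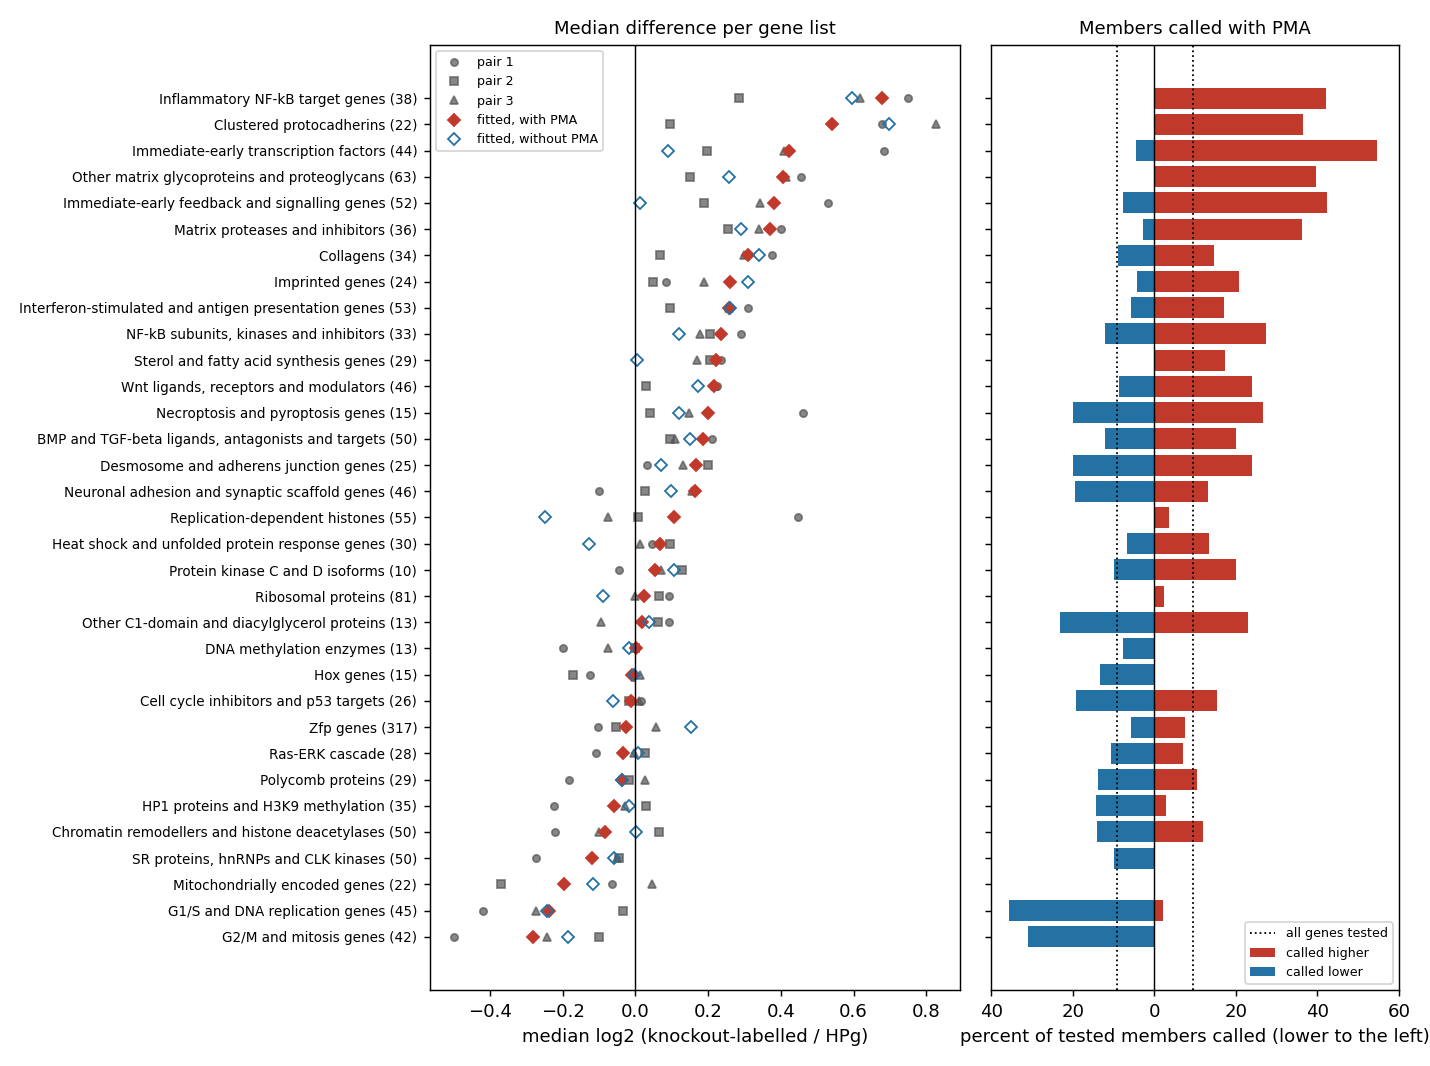
Left, the median log2 ratio of knockout-labelled over HPg per gene list (number of members tested in brackets) in each PMA pair and in the fits with and without PMA. Right, the percent of members called higher (to the right) and lower (to the left) with PMA; dotted lines mark all genes tested, 9.49% higher and 9.09% lower. The immediate-early, matrix and inflammatory lists extend to the right and the cell cycle lists to the left.

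The called genes were unevenly spread over chromosomes. On chromosome 14, 161 of 517 genes were higher and 4 lower, with a median of 0.27 (0.25, 0.26 and 0.29 in pairs 1 to 3), and on chromosome 10, 35 of 759 were higher and 250 lower, with a median of -0.24 (-0.16, -0.25 and -0.28). The same medians without PMA were 0.31 and -0.27. Chromosomes 12 (110 higher, 4 lower), 15 (108 and 5), 7 (180 and 37) and 19 (76 and 13) had an excess of higher genes. Chromosomes 2 (53 and 257), 6 (38 and 162), 8 (36 and 169) and 4 (49 and 176) had an excess of lower ones. In running medians of 25 neighbouring genes all 493 windows of chromosome 14 lay above 0, and 6 of 735 windows of chromosome 10 did. With chromosome medians removed from each library 1135 genes were higher and 942 lower. Called genes above that lie on such a chromosome share its shift, among them Cdk1, E2f7, Mdm2, Tbk1 and Tab2 on chromosome 10 and Egr3, Tsc22d1, Ripk3 and Plau on chromosome 14. Copy number was not measured, so a difference in it and in transcription per copy cannot be told apart here.

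**Figure D5:**
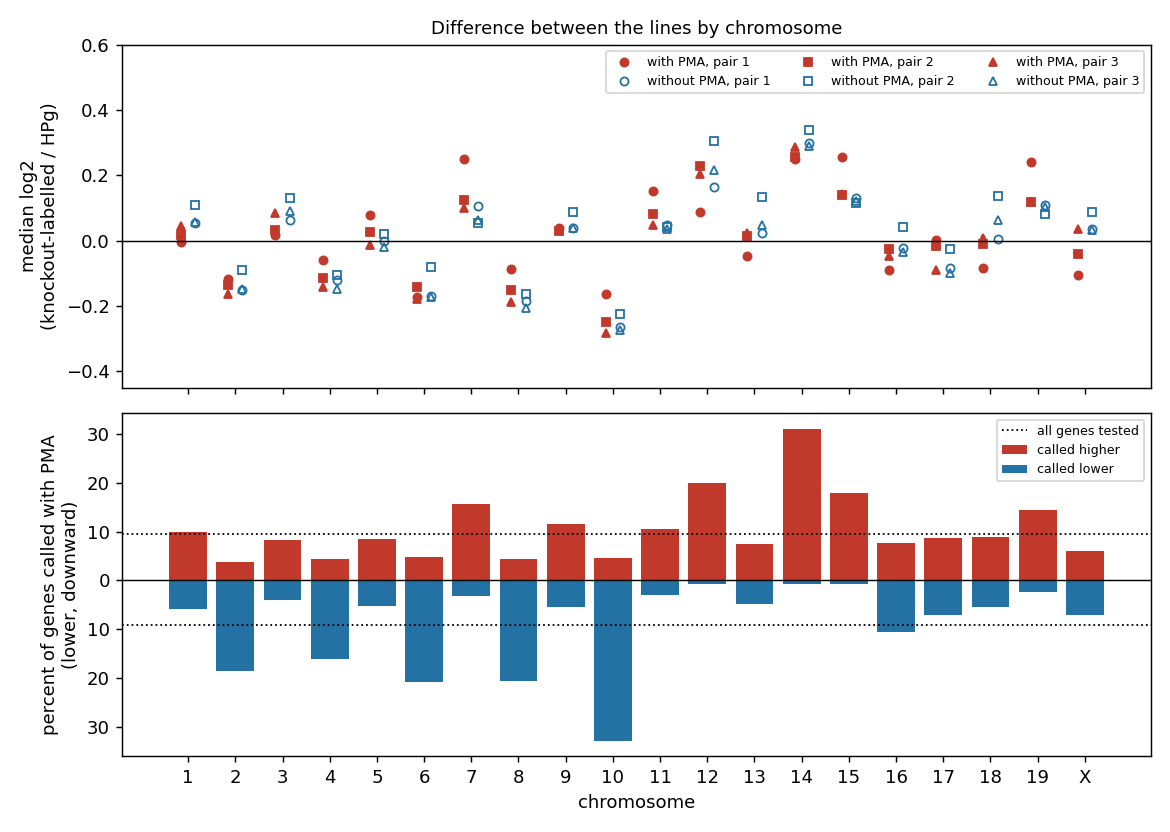
Top, the median log2 ratio of knockout-labelled over HPg per chromosome in each pair of the same replicate number, with PMA (filled) and without (open). Bottom, the percent of tested genes called higher (up) and lower (down) with PMA; dotted lines mark all genes tested. Chromosome 14 (0.25 to 0.29 with PMA) and chromosome 10 (-0.28 to -0.16) stand at the ends in the top panel.

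A few short stretches stood out further, chosen after their values were seen as runs of at least 10 genes whose running median passed 0.5 in either direction. On chromosome 12 a stretch from Serpina9 to Scarna13 held 9 higher genes of 15. Serpina3g, a serine protease inhibitor, was at 6.92, 6.495 and 9.01 CPM in knockout-labelled and 1.13, 2.03 and 2.31 CPM in HPg libraries (2.04, SE 0.23, edgeR adjusted p = 9.94e-05). Its tandem copies Serpina3h (1.62), Serpina3f (1.57) and Serpina3i (1.73) were higher too, and reads of near-identical copies may be split between them. Clmn (0.95) and Syne3 (0.51) at the same end were higher, while Dicer1 was not called (0.05). On chromosome 10 a stretch from Atg5 to Ccdc138 had 18 of 25 genes lower with a median of -0.56, and on chromosome 2 one from Ifih1 to B3galt1 had 5 of 12 lower.

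The other stretch of chromosome 12 is the imprinted Dlk1-Dio3 region, from Wdr25 to Dync1h1, where a maternally transcribed noncoding RNA is followed by clusters of small nucleolar RNAs and microRNAs. Its 34 tested genes had a median of 1.61 (1.41 without PMA), and 10 were higher and none lower. The noncoding Meg3 was at 17.1, 36.0 and 17.0 CPM in knockout-labelled and 9.86, 11.9 and 5.99 CPM in HPg libraries (1.26, SE 0.21, edgeR adjusted p = 0.00154), and Dio3 was higher by 0.62. The choice of the stretch by its median, and a filter that such low genes pass through the higher group, favour values above 0 there. Of 21 microRNA genes tested in it 8 were called, which are also the only 8 called of 82 microRNA genes tested anywhere. The flanking protein-coding genes Wdr25 (-0.02), Begain (0.18), Ppp2r5c (0.12) and Dync1h1 (0.10) were not called. Mir382 was at 0.724, 0.588 and 0.423 against 0.110, 0.203 and 0.122 CPM (2.00, SE 0.42, adjusted p = 0.00553), Mir654 at 0.515, 0.610 and 0.257 against 0.0518, 0.197 and 0.0816 CPM (2.17), and Mir411 at 0.166, 0.188 and 0.110 against 0.0194, 0.0444 and 0.0163 CPM (2.54). Mir127 was at 0.681, 0.754 and 0.423 against 0.142, 0.311 and 0.196 CPM (1.51). Groups did not overlap for these 4, but libraries of long RNA count reads over the hairpin gene and do not measure the mature forms.
The mature arms of these 4 genes (RefSeq, GRCm38.p6) are shown with the seed, bases 2 to 8, in capitals, to show which sequences the stretch encodes.
mmu-miR-382-5p: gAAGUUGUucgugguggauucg
mmu-miR-382-3p: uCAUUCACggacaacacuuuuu
mmu-miR-654-5p: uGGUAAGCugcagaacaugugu
mmu-miR-654-3p: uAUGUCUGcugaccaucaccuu
mmu-miR-411-5p: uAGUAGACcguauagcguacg
mmu-miR-411-3p: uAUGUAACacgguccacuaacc
mmu-miR-127-5p: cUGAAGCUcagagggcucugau
mmu-miR-127-3p: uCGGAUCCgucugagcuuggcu
The 8 arms have 8 different seeds. Elsewhere in the imprinted list, Slc22a18 (1.14), Grb10 (0.90) and Ppp1r9a (0.75) were higher beside H19 and Meg3, and Nespas was lower (-0.54).

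The difference between the lines with PMA was largely shared with the difference without it. The 2 differences are taken between separate libraries, but 1 fit over all 12 gives them a common spread and replicate block. Of the 3090 called genes 2913 (94.3%) had the same sign without PMA, and 1311 were called there too, 1310 of them in the same direction. These are 42.4% of the calls with PMA and 62.9% of those without. Over all 16630 genes the fitted log2 differences had Pearson r = 0.62 and Spearman rho = 0.56, as a description, since both come from 1 fit and genes are not independent. Some strong differences had nearly the same size: Cttnbp2 was at -4.58 with and -4.58 without PMA, Chd3 at 1.88 and 1.89, Dsp at 2.86 and 2.89 and Fry at 2.03 and 2.04. Other fitted values lay further apart, as for Elmod1 (-3.59 and -2.78), whose interaction did not pass. Lrrc4c (-4.53 and -3.76) and Magi2 (-2.94 and -2.11) had an unadjusted interaction p of 0.0283 and 0.0416 and did not pass after adjustment. The genes with the smallest interaction p among those called were Fosl1, Ube2v2 (-0.79 with and 0.16 without PMA), Myc, Trib1 and Fgf10, and of these only Fosl1 passed under any alternative.

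Long genes were called lower more often than short ones. The share of protein-coding genes called lower rose from 2.34% at a span of up to 5 kb to 24.7% above 500 kb, and the share called higher went from 10.4% to 6.47%. Without replicate 1 the shares called lower were 2.49% and 18.9%, with the pair of the strongest slope left out. The shares called higher were then 4.11% and 9.47%, so long genes were called more often in both directions. With offsets for GC content and transcript length the shares called lower were 5.55% and 25.3%, and those called higher 9.83% and 12.4%. The median log2 difference of genes above 500 kb was -0.11 with PMA, at -0.37, -0.01 and 0.00 in pairs 1 to 3, and 0.24 without PMA. Cadm2, Magi2 and Lrrc4c belong to the long genes.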

How the data were processed

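RNA was sequenced from total RNA after ribosomal RNA depletion, as directional paired-end libraries per the labels' protocols. The deposited values are whole-number counts per gene; the submitters' processing notes name cutadapt 1.11, STAR 2.5.0a, featureCounts 1.4.6-p3 and mm9. The sources used here do not state the annotation, how strand was treated or the counting unit. Genes carry Ensembl identifiers, of which 32620 of 37310 matched a symbol. Names, chromosome, order, GC content and span came from GENCODE M21 and RefSeq on GRCm38, not the build of the files.

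Counts were fitted with edgeR 4.0.16 (R 4.3.3) in the quasi-likelihood test over all 12 libraries, with TMM factors, a filter of 10 counts (15 in total), group terms and the replicate number as a block, and Benjamini-Hochberg adjusted p below 0.05 over 16630 genes. Libraries with the same number deviated together (r 0.159 to 0.558 over 18 pairs of libraries, -0.517 to 0.163 over 36 with different numbers); the labels do not say what a number shares. Libraries of a group all differed by more than sampling noise. Pair ratios used a pseudocount of 0.05 CPM.

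Named were Cbx3; the 10 most increased and 10 most decreased called genes above 1 CPM without overlap; the 10 with the smallest p; the 10 most abundant beyond 0.5; up to 6 called members of each list (all for immediate-early, NF-kB and HP1 lists); the 5 smallest interaction p; and neighbours of the 3 most decreased. Named beyond this, after their values were seen, were Cbx1, Cbx5, Mapk3, Prkca, Cdh1, Vim, Casp8, Col4a2 and genes of the chromosome stretches. A few genes that the rule named are not reported here. The comparison and the 41 lists were chosen with earlier results of these data known. The procedure was tested on simulated data. Alternatives were DESeq2 1.42.0, other scalings and filters, GC and length offsets, chromosome medians removed, the 6 PMA libraries only, no block, and each library or replicate left out.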

Additional observations from a re-analysis of the deposited data

How the results depend on the processing

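The numbers of genes called with PMA stayed within 1.5 times of 3090 with DESeq2, its size factors, upper-quartile factors, library size only, both other filters, GC and length offsets and the 6 PMA libraries alone, and at 2077 with chromosome medians removed, where 942 were lower and 1154 were called without PMA. Without the replicate block 411 genes were called with PMA (215 higher, 196 lower) and 219 without it, and all 411 were among the 3090. Leaving out replicates gave 211 (without replicate 3) to 3768 (without HPg library 2 with PMA) calls, 123 to 1826 higher and 88 to 2034 lower, 145 to 2000 without PMA, and 0 to 1 for the interaction. Leaving out a single PMA library gave 1979, 3768 and 1676 calls for HPg libraries 1 to 3 and 1361, 2162 and 1982 for the knockout-labelled ones. The interaction had 1 call with DESeq2, with the 1 CPM filter, with no filter, with upper-quartile factors and without untreated HPg library 2, an alternative chosen after seeing the data (Fosl1 in each), and 1 without replicate 1 (Gm6565). The share of calls that were higher was 51.1%, and 37.6% with library size only and 65.4% with upper-quartile factors. Cbx3 ranged from -0.37 to -0.08 and passed in none. Gm13803 beside Lrrc4c went from 0.70 to -0.027 without HPg library 1 with PMA, and ranged up to 1.98 without HPg library 3. Of 263 named called genes 39 were called in all 20 alternatives, 72 without the block, 179 without replicate 1, 188 with chromosome medians removed and 226 with GC and length offsets. The causes were not tested.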

Other observations

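Some markers of other cell types were called. Vwf, an endothelial clotting factor, was at 1.88, 2.62 and 3.24 CPM in knockout-labelled and 0.408, 0.768 and 0.800 CPM in HPg libraries with PMA (log2 difference 2.01, SE 0.25, edgeR adjusted p = 2.03e-04), and was called in all 20 alternatives. Des, the muscle intermediate filament desmin, was at 1.25, 1.06 and 1.13 against 0.246, 0.457 and 0.310 CPM (1.80), while Myod1 and Myog had no count. Col2a1, a cartilage collagen, was at 37.9, 33.8 and 33.5 against 11.9, 20.7 and 14.4 CPM (1.21). Of 4 tested adipocyte markers 1 was higher and 1 lower. Pparg, an adipocyte regulator, was at 13.2, 29.1 and 14.1 against 27.3, 57.5 and 31.0 CPM, lower in each pair (-1.05, SE 0.11), and was not called without the block. Cebpa was the higher one (0.59), called in 9 of the 20 alternatives. Of 9 tested neural markers Nes (0.94), Mbp (1.03), Ncam1 (1.10) and Gap43 (1.22) were higher (44.4% of the list).

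Of 30 heat shock and unfolded protein genes 4 were higher and 2 lower, and 1 and 1 without replicate 1. The small heat shock protein gene Hspb1 was at 0.524, 0.211 and 0.221 CPM in knockout-labelled and 0, 0.0190 and 0.0326 CPM in HPg libraries, and Hsp90b1, the chaperone GRP94, was at 657.3, 483.3 and 720.8 against 1138, 710.7 and 846.9 CPM (-0.53, SE 0.12). Of 317 Zfp genes 24 were higher and 18 lower (13.2%), with Zfp583 (1.85) and Zfp467 (1.63) among the higher. Without replicate 1 there were 11 and 9, and without PMA 30 higher and 1 lower. The Hox genes Hoxa9 (-0.40) and Hoxa11 (-0.26) were the 2 called of 15 (13.3%).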
